A study of Mus musculus with 2 samples.

Results

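Barcodes called Otor mesenchyme with Car3 or Nkx6-1 numbered 104 of 15813 in this single-cell survey of the fetal mouse cochlea, 52 of 6440 in the wild type library and 52 of 9373 in the mutant library. A barcode stands for 1 droplet, and a UMI (unique molecular identifier) for 1 captured RNA molecule. The 15813 had no fewer than 1000 UMIs and 500 detected genes, with mitochondrial transcripts making up 10% of UMIs or less. From them were kept barcodes with at least 1 UMI of Otor, with at least 2 of the 4 companion genes Car3, Slc1a2, Nkx6-1 and Cp, with no UMI of Slc5a7, Crym or Epcam, and with fewer than 5 UMIs in all of the dividing-cell genes Mki67, Top2a and Cenpf. The barcodes were thus chosen by their measured UMIs of these genes, so the levels of those genes describe the choice and are no finding.

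The study compared cochleae at E16.5 (embryonic age in days) from wild type embryos with cochleae from Emx2Cre;Ptch1f/f embryos, which carry an Emx2-driven Cre recombinase and floxed alleles of Ptch1, the receptor that holds Hedgehog signalling in check. Both groups were of mixed 129/SvEv and C57BL/6N background, and 8 cochleae of each genotype went into 1 library each. By its title, the series concerned control of marginal cells and the stria vascularis by Ptch1 and Shh. With 1 library per genotype no difference between genotypes could be tested, and genotype, library, litter and capture cannot be told apart. Cre acts where Emx2 has been expressed, and Emx2 had 0 UMIs in the selected barcodes of both libraries, so whether these cells had lost Ptch1 was not tested.

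The otic mesenchyme surrounds the epithelial tube of the cochlea and gives rise to the fibrocytes of the spiral ligament and limbus and to the otic capsule. The transcription factors Pou3f4 and Tbx18 mark it and are needed for normal hearing. Otor encodes otoraplin, a small secreted protein of the MIA family made by cochlear mesenchyme. Car3 encodes a carbonic anhydrase, Slc1a2 a glutamate transporter, Cp the copper-carrying ferroxidase ceruloplasmin, and Nkx6-1 a homeodomain transcription factor. Crym encodes the thyroid hormone binding protein mu-crystallin, and Slc5a7 the high-affinity choline transporter.

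Otor lies at chr2:143078473-143081713 on the plus strand of the mm10 genome, Car3 at chr3:14863512-14872523 on the plus strand, Slc1a2 at chr2:102658659-102790784 on the plus strand, Nkx6-1 at chr5:101658139-101664996 on the minus strand and Cp at chr3:19957054-20009145 on the plus strand, in the GENCODE annotation. RefSeq promoter windows of the GRCm38.p6 build were matched for 4 of 6 genes looked for (Otor, Slc1a2, Nkx6-1 and Cp), and not for Car3 and Crym. The windows of Otor, the gene all selected barcodes share, and of Nkx6-1, the gene that divides them, are printed 5′ to 3′ on the gene's strand, with 250 bases before the start site and 50 after it. The Otor window is chr2:143078143-143078442 and the Nkx6-1 window chr5:101664662-101664961. The start sites of the windows are those of RefSeq and differ from the GENCODE gene ends given above. By GENCODE the Otor window ends before the gene begins, and the Nkx6-1 window lies within the gene. Capitals mark a match to any of 4 motifs on either strand.
Otor: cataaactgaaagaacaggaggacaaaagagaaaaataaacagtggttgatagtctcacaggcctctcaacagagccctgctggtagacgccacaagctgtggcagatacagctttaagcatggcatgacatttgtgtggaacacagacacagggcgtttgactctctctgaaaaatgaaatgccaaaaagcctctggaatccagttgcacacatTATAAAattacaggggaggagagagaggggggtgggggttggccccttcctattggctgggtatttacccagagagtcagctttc
Nkx6-1: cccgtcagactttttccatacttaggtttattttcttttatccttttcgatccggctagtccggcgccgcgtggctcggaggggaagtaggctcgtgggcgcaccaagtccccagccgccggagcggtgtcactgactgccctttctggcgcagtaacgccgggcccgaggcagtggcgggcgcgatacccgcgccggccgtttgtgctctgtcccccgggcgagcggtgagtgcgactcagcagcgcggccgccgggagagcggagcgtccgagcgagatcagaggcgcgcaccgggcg
The motifs searched were TATAAA, the octamer ATGCAAAT, the homeodomain core TAATTA and the SOX core AACAAT. A match to TATAAA starts 35 bases before the Otor start site and is present in 13.6% of the 32851 windows of 300 bases. None of the 4 motifs was found in the window of Nkx6-1 or of Slc1a2. One of the Cp windows holds an AACAAT, present in 10.7% of windows, and the other window an overlapping pair of TATAAA matches on opposite strands. The octamer is in 1.74% of windows and TAATTA in 5.29%. The matches describe these letters and no binding was measured.

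The wild type library held 6500 barcodes and 61130806 UMIs, and the mutant library 12326 barcodes and 100135532 UMIs. The lowest barcode had 3352 UMIs in the wild type library and 500 in the mutant one, so the floor of 1000 UMIs removed barcodes from the mutant library only. Selected barcodes had a median of 6965 UMIs in the wild type library (lowest 3416, highest 24040) and of 8562.5 in the mutant library (lowest 1102, highest 99470). Between the libraries 25 barcode sequences were shared, 18 of them after filtering and 0 among the selected barcodes. All levels below are CPM, the UMIs of a gene summed over the barcodes named and scaled to a common total, with exact Poisson 95% intervals, and shares carry exact Clopper-Pearson 95% intervals. These intervals cover counting error only, and not the spread between cells or animals.

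The selection kept a small remainder of a far larger population. Otor was detected in 82.5% of filtered wild type barcodes and 70.1% of filtered mutant barcodes. Every condition but that on Slc5a7 and Crym left 1219 wild type and 1625 mutant barcodes. Of these, 1167 (95.7%) and 1573 (96.8%) had a UMI of Slc5a7 or Crym, and 52 (4.27%, interval 3.20 to 5.56) and 52 (3.20%, interval 2.40 to 4.18) had none. The barcodes set aside at this step are called Crym-positive counterparts below, since 99.1% of the wild type ones and 99.8% of the mutant ones had Crym itself. Just outside the limit, 75 wild type and 68 mutant barcodes had exactly 1 UMI of the pair, while 584 and 1011 had 10 or more. The selected share of filtered barcodes was 0.807% (interval 0.604 to 1.06) in the wild type library and 0.555% (interval 0.415 to 0.727) in the mutant library. These intervals overlap. Dropping filtered barcodes with at least 3 markers of another cell type left 3532 of 6440 wild type and 6139 of 9373 mutant ones. Of these, 45 (1.27%, interval 0.931 to 1.70) and 42 (0.684%, interval 0.494 to 0.924) were selected, and these intervals do not overlap. The totals shrank unevenly between the libraries, which by itself moves the shares. With every barcode thinned to 2000 UMIs the same rule took 92 of 6440 wild type barcodes (1.43%, interval 1.15 to 1.75). It took 81 of 8081 mutant barcodes (1.00%, interval 0.797 to 1.24), with 1292 shallower mutant barcodes left out. The intervals of the thinned shares overlap.

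Crym was found in most barcodes even of a cell type that should lack it. Macrophage barcodes, called by at least 3 of C1qa, C1qb, Csf1r and Fcer1g, had a Crym UMI in 64.4% of 132 wild type and 51.6% of 128 mutant cases, at median depths of 9898.5 and 11318.5 UMIs. Otor was found in 69.7% and 51.6% of the same macrophage barcodes, with medians of 2.5 and 1 UMIs and highest values of 50 and 89. Whether these came from free RNA or from doublets was not tested, and 1 UMI of Otor is within this background. As a description of the choice, Otor stood at 3218 CPM (3049 to 3393) in the wild type selection and 2099 CPM (1980 to 2222) in the mutant selection, against 709 and 204 CPM in macrophage barcodes. Crym-positive counterparts had still more Otor, 5811 and 5372 CPM. Exactly 1 Otor UMI was all that 4 wild type and 9 mutant selected barcodes had, and 10 or more were in 31 and 27.

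Per barcode, Otor ran from 1 to 145 UMIs with a median of 15 in the wild type selection, and from 1 to 148 with a median of 12 in the mutant selection. Both libraries covered the same range. Car3 ran from 0 to 30 UMIs with a median of 1.5 in the wild type, and from 0 to 105 with a median of 1 in the mutant. The 3 highest mutant barcodes had 105, 43 and 40 of the 258 Car3 UMIs, and that with 40 was the deepest barcode of the selection. Slc1a2 reached 5 and 6 UMIs, Nkx6-1 2 and 3, and Cp 8 and 7, in the wild type and mutant selections.

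**Figure D1:**
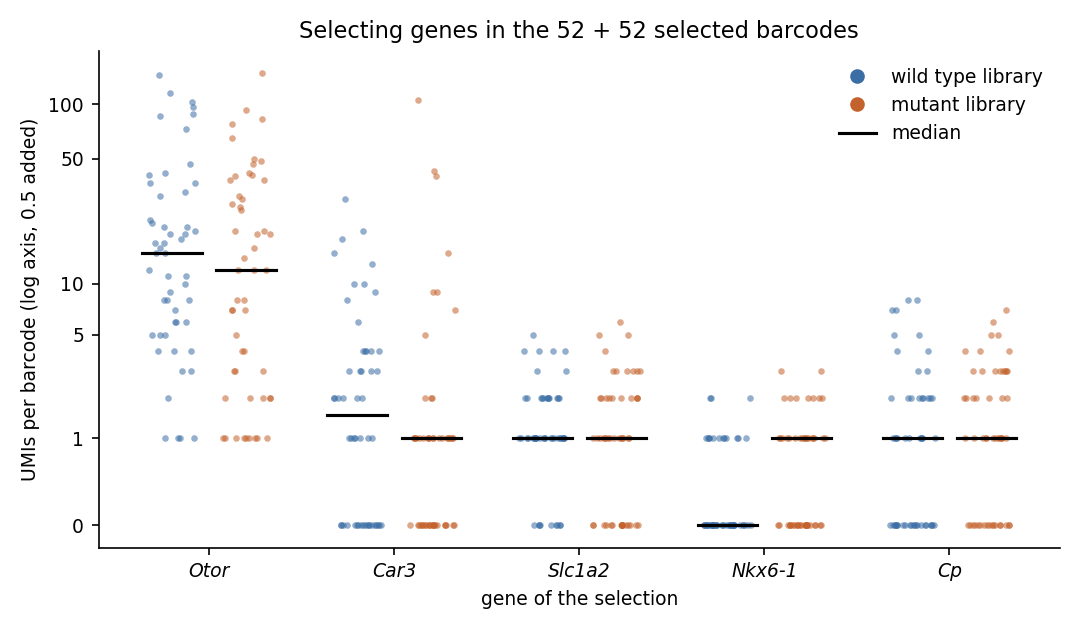
UMIs per selected barcode (log axis, 0.5 added so that 0 can be drawn) for Otor and the 4 companion genes; each point is 1 of 52 wild type or 52 mutant barcodes and the black bar is the median. Otor spans 1 to 145 and 1 to 148 UMIs, Car3 has a long upper tail, and Nkx6-1 never exceeds 3.

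Car3 was detected in 33 wild type and 30 mutant selected barcodes, Slc1a2 in 43 and 35, Nkx6-1 in 15 and 27, and Cp in 30 and 35. The label's pair did not cover the set: Car3 without Nkx6-1 was seen in 25 wild type and 17 mutant barcodes, Nkx6-1 without Car3 in 7 and 14, both in 8 and 13, and neither in 12 and 8. Those with neither passed on Slc1a2 and Cp together. Nkx6-1 was in 28.8% (17.1 to 43.1) of wild type and 51.9% (37.6 to 66.0) of mutant selected barcodes, and in 58.4% and 60.4% of Crym-positive counterparts. Outside the limits, 67 wild type and 120 mutant barcodes met every other condition with 1 companion in place of 2.

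Markers of mesenchyme were present in most of the selected barcodes. At least 3 of the 7 mesenchyme genes Col1a2, Col3a1, Col5a2, Pdgfra, Twist1, Prrx1 and Fstl1 were present in 51 wild type and 47 mutant selected barcodes. Pou3f4 was present in 48 and 40, and Tbx18 in 45 and 41; in macrophage barcodes Pou3f4 was in 32.6% and 14.1%. Pou3f4 stood at 463 CPM (401 to 533) in the wild type and 323 CPM (278 to 374) in the mutant selection, and Tbx18 at 397 CPM (339 to 462) and 371 CPM (322 to 425). Crym-positive counterparts were close by, at 507 and 429 CPM for Pou3f4 and 413 and 497 CPM for Tbx18. Otos, which encodes the fibrocyte product otospiralin, had 0 UMIs in both selections.

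Some barcodes held RNA of a further cell type. Within each of the 9 other cell types with a marker set, at least 3 markers of 1 type were found in 7 wild type and 10 mutant selected barcodes, a share of 13.5% and 19.2%, against 11.1% and 15.9% of Crym-positive counterparts. In the wild type they were 3 with neuronal, 3 with erythroid, 2 with macrophage and 1 with glial markers, and 1 barcode can count under several types. In the mutant they were 6 with erythroid, 2 with neuronal and 1 each with glial, endothelial and pericyte markers. The deepest mutant barcode had 99470 UMIs, of which 77701 (78.1%) were haemoglobin, and it supplied 17.8% of all UMIs of the mutant selection. Levels given as "without foreign markers" leave these 17 barcodes out, which left 45 wild type and 42 mutant barcodes.

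Against their Crym-positive counterparts, the selected barcodes had less cartilage-type and fibrocyte matrix RNA in both libraries. Because the counterparts differ by the rule itself, these ratios describe what goes with the absence of Crym and have no test. Of 13460 genes compared, 119 (0.884%) were higher by 2-fold or more and 491 (3.65%) lower by as much in the selected barcodes of both libraries. Coch, which encodes the fibrocyte protein cochlin, stood at 16.6 CPM (6.65 to 34.1) and 5.35 CPM (1.10 to 15.6) in the selected barcodes, against 300 and 176 CPM in the counterparts. No selected wild type barcode had more than 1 Coch UMI. Col9a1, a chain of the cartilage collagen IX, stood at 192 and 39.3 CPM against 961 and 504 CPM. Col9a3, another chain of it, stood at 130 and 37.5 CPM against 800 and 375 CPM. Scx, the tendon and ligament transcription factor scleraxis, stood at 14.2 and 8.92 CPM against 60.7 and 62.2 CPM. Matn4, a matrilin of the cartilage matrix, stood at 26.01 and 32.1 CPM against 123 and 118 CPM. Of 17 measured cartilage matrix genes, 7 were at least 2-fold lower in both libraries and 0 higher, with median log2 ratios of −0.71 and −1.14 against −0.07 and −0.20 over all genes. Of 30 measured fibrocyte and limbus products, 4 were lower in both and 0 higher.

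Other genes were higher in the selected barcodes, among them regulators, secreted signals and a channel. Osr1, a zinc finger transcription factor of mesenchyme, stood at 182 CPM (144 to 227) and 136 CPM (107 to 170) against 35.1 and 49.5 CPM. Aldh1a2, which makes retinoic acid, stood at 52.01 and 46.4 CPM against 8.68 and 10.7 CPM. Crabp2, which carries retinoic acid in the cell, stood at 246 and 153 CPM against 94.7 and 87.5 CPM, short of 2-fold in the mutant. Of 14 measured retinoic acid genes, 1 was at least 2-fold higher in both libraries and 0 lower, with median log2 ratios of 0.06 and 0.43. Wnt6, a WNT ligand, stood at 68.6 and 58.9 CPM against 17.5 and 12.3 CPM. Sema3d, a secreted semaphorin, stood at 82.8 and 96.4 CPM against 24.0 and 7.63 CPM. Medag, a regulator of fat cell development, stood at 35.5 and 39.3 CPM against 5.45 and 6.51 CPM. Kcnk2, a tandem-pore potassium channel, stood at 56.7 and 76.7 CPM against 15.5 and 17.2 CPM. Igfbp3, which binds insulin-like growth factors, stood at 42.6 and 66.0 CPM against 11.8 and 8.31 CPM. Without foreign markers these 8 genes stayed higher in both libraries, with log2 ratios over equally treated counterparts from 1.26 for Crabp2 to 3.94 for Sema3d. In the mesenchyme without Otor UMIs described below, Aldh1a2 stood at 63.1 and 28.9 CPM, so in the wild type it was no higher in the selection. Wnt6, Sema3d, Medag and Kcnk2 were higher in the selection than in that mesenchyme in both libraries. Igfbp3 stood at 28.6 and 20.2 CPM in that mesenchyme. The wild type value lies within the Igfbp3 interval of the wild type selection, 25.2 to 67.3 CPM. Osr1 and Crabp2 are not set against that mesenchyme here.

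These levels were not spread evenly over barcodes. Osr1 was present in 23 wild type and 24 mutant selected barcodes, 44.2% (30.5 to 58.7) and 46.2% (32.2 to 60.5), against 14.6% and 20.7% of the counterparts and 5.30% and 1.56% of macrophage barcodes. Osr1 or Aldh1a2 was present in 26 of 52 wild type barcodes and 24 of 52 mutant barcodes, against 16.2% and 22.1% of the counterparts. At this depth a barcode with 0 UMIs of these genes is not shown to lack them. In the mutant, 1 barcode held 46.2% of the 26 Aldh1a2 UMIs, and 2 barcodes held 50% of the 54 Sema3d UMIs. In the wild type, 1 barcode held 40% of the 35 Sema3d UMIs, and 1 barcode held 40% of the 15 Medag UMIs. Of the 18 wild type Igfbp3 UMIs, 2 barcodes held 55.6%.

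The levels differed by step of Crym. For 8 genes chosen after their values were seen, barcodes with 0, 1, 2 to 9 and 10 or more UMIs of Crym and Slc5a7 together were compared within each library. Coch stood at 16.6, 72.6, 92.4 and 503 CPM over these steps in the wild type, and at 5.35, 12.2, 29.2 and 252 CPM in the mutant. Osr1 ran the other way, at 182, 137, 45.5 and 14.7 CPM in the wild type and 136, 107, 96.1 and 25.3 CPM in the mutant. Medag stood at 35.5, 29.4, 6.77 and 1.59 CPM in the wild type and 39.3, 15.3, 14.1 and 2.61 CPM in the mutant. Wnt6 was no lower at the first step in the wild type, at 68.6 and 74.3 CPM with 0 and 1 UMI. In the wild type the barcodes with 1 UMI of the pair (75 barcodes, median 7271 UMIs) were near the selected ones for Osr1, Wnt6 and Medag, where the intervals overlap, and apart for Coch and Sema3d. Barcode depth was similar over the steps, with wild type medians between 6965 and 7501 UMIs and mutant medians between 7933.5 and 9837.

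**Figure D2:**
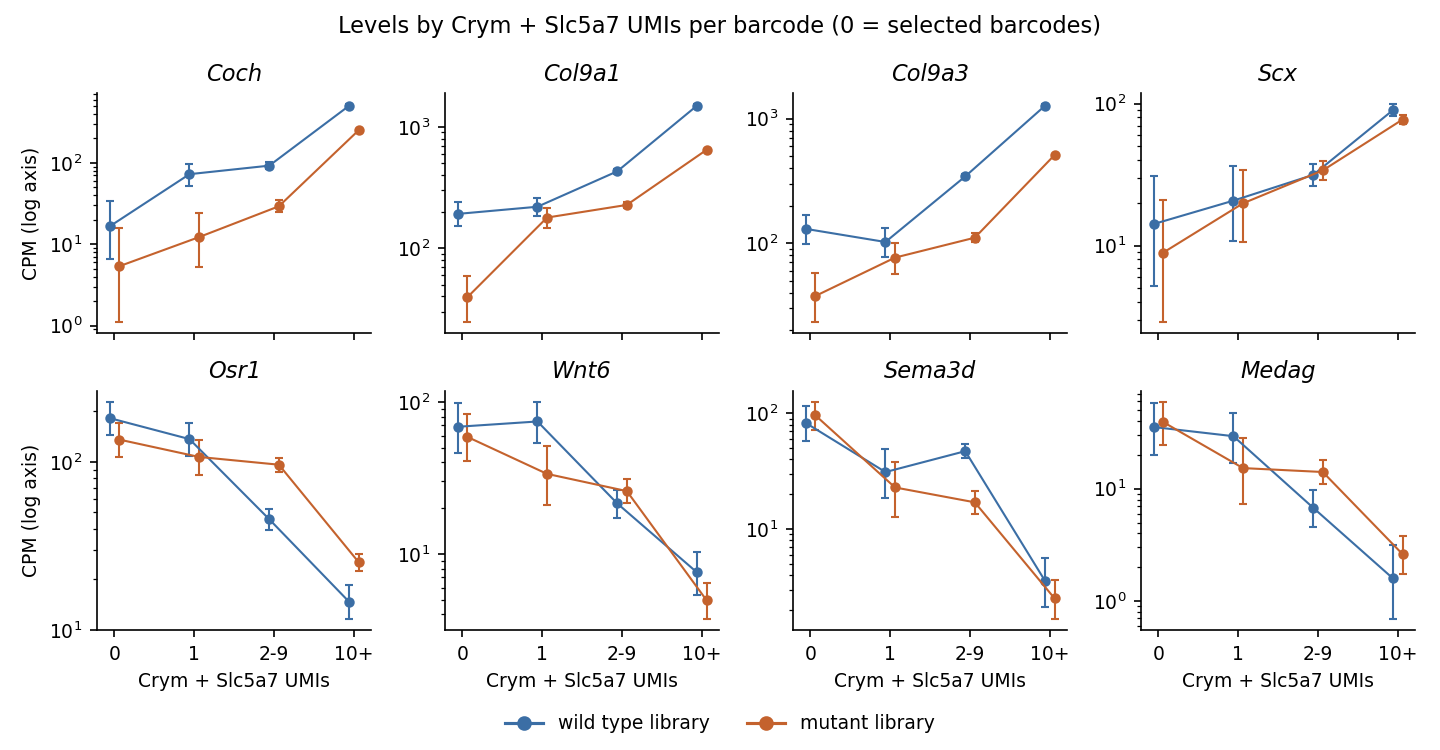
CPM (log axis) with exact Poisson 95% intervals for 8 genes, by the number of Crym and Slc5a7 UMIs in a barcode, in the wild type (blue) and mutant (orange) libraries; 0 marks the selected barcodes. In both libraries Coch, Col9a1, Col9a3 and Scx are highest and Osr1, Wnt6, Sema3d and Medag lowest at 10 or more UMIs.

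Set against Otor-negative mesenchyme, barcodes with no Otor UMI and at least 3 of the same 7 mesenchyme genes (306 wild type and 555 mutant), the selected barcodes were higher in Otor, Car3, Slc1a2 and Cp, genes of the rule, and in the genes named here. Of 11454 genes compared, 107 (0.934%) were higher by 2-fold or more and 493 (4.3%) lower by as much in both libraries. Wnt5a, a non-canonical WNT ligand, stood at 243 CPM (199 to 295) and 232 CPM (194 to 276), against 94.4 and 88.9 CPM, while of 23 WNT genes and antagonists 2 were higher and 2 lower in both libraries. Syt1, the calcium sensor of vesicle release, stood at 118 and 98.1 CPM against 25.95 and 25.3 CPM. Aard stood at 163 and 134 CPM against 43.4 and 36.5 CPM. Ebf3, an EBF transcription factor, stood at 89.8 and 80.3 CPM against 21.9 and 29.2 CPM. In the Crym-positive counterparts Ebf3 stood at 64.3 and 88.1 CPM, so in the mutant it was no higher in the selection than there. Counterpart levels were 138 and 96.5 CPM for Wnt5a, 66.5 and 49.5 CPM for Syt1, and 58.9 and 57.3 CPM for Aard. Genes lower in the selection included markers of other cell types. The Otor-negative set was not filtered for such markers, so the 493 lower genes are not a contrast with mesenchyme alone. Fabp7, a glial fatty acid binding protein, stood at 116 and 67.8 CPM against 2586 and 893 CPM, and the pericyte gene Rgs5 at 0 and 12.5 CPM against 489 and 275 CPM. Col1a1, a main chain of fibrillar collagen I, had 1 and 0 UMIs in the selections, against 88.1 and 64.1 CPM.

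Among the selected barcodes, those with Car3 and no Nkx6-1 (25 wild type, 17 mutant) differed from those with Nkx6-1 and no Car3 (7 wild type, 14 mutant). Of 2874 genes with at least 30 UMIs, 52 were at least 2-fold higher on the Car3 side and 109 on the Nkx6-1 side in both libraries. Alcam, an immunoglobulin-family adhesion molecule, had 66 UMIs in 18 of the 25 wild type Car3 barcodes and 126 UMIs in 11 of the 17 mutant ones. It had 0 UMIs in the 7 wild type and 14 mutant Nkx6-1 barcodes, while macrophage barcodes had it in 30.3% and 17.2% of cases. The split leaves out barcodes with both Car3 and Nkx6-1. Alcam and Nkx6-1 did occur together, in 3 wild type and 3 mutant selected barcodes and in 25.7% and 19.3% of Crym-positive counterparts. The Alcam level on the Car3 side was 371 CPM (287 to 473) and 556 CPM (464 to 663). These were 8.56-fold and 23.5-fold a floor of 3 UMIs in the Nkx6-1 barcodes of the same library. For 0 UMIs the exact intervals on the Nkx6-1 side reach 53.4 and 29.1 CPM, so folds over the floor are not lower bounds. Aspn, the small matrix proteoglycan asporin, was at 146 CPM (95.6 to 214) and 106 CPM (67.9 to 158). It was 0 on the Nkx6-1 side, and the levels were 3.37-fold and 4.47-fold the same floor. Cemip, a hyaluronan-degrading protein, was at 107 CPM (64.4 to 167) and 79.5 CPM (47.1 to 126). It was 0 on the Nkx6-1 side, and the levels were 2.46-fold and 3.35-fold the floor. Without foreign markers Alcam remained at 394 CPM in 14 barcodes and 706 CPM in 8. The neuronal genes Ina, Elavl4, Mapt and Stmn3 also led the Car3 side, but without foreign markers each had 0 or 1 UMI there in both libraries.

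The Nkx6-1 side was higher in a further group. Cp stood at 289 and 221 CPM there against 101.3 and 39.7 CPM with Car3. Itga8, the integrin alpha 8 chain, stood at 174 and 213 CPM against 28.1 and 39.7 CPM. Cdh6, a cadherin, stood at 275 and 229 CPM against 61.9 and 48.6 CPM. Arhgap20 stood at 289 and 284 CPM against 84.4 and 48.6 CPM. Camk2n1, an inhibitor of CaM kinase II, stood at 289 and 158 CPM against 67.5 and 26.5 CPM. Pou3f4 and Slc1a2 had log2 ratios between −0.17 and 0.10. Otor stood at 4216 CPM with Car3 and 1924 CPM with Nkx6-1 in the wild type, and at 1435 and 1485 CPM in the mutant. The selection asked for at least 2 companions, so barcodes on either side had to have Cp or Slc1a2 as well. The Cp and Slc1a2 levels of both sides are thus in part set by the rule.

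The same split was made among Crym-positive counterparts, which the selection did not use: 401 wild type and 527 mutant barcodes with Car3 alone, and 238 and 299 with Nkx6-1 alone. Alcam stood at 333 and 105 CPM with Car3 and at 74.997 and 34.4 CPM with Nkx6-1. Aspn stood at 72.8 and 38.1 CPM against 8.70 and 4.09 CPM, and Cemip at 51.7 and 38.1 CPM against 1.09 and 5.11 CPM. Itga8 stood at 27.3 and 52.3 CPM with Car3 against 88.6 and 174 CPM with Nkx6-1, and Cdh6 at 66.6 and 116 CPM against 253 and 363 CPM. Each of these 5 genes was thus on the same side in the counterparts as in the selected barcodes. The sizes cannot be compared for Alcam, Aspn and Cemip, which had 0 UMIs on the Nkx6-1 side of the selection. Macrod2 was on the other side in the mutant counterparts, and Prxl2c in the wild type ones. Their log2 ratios were −2.32 and −1.90, and −1.81 and −2.12, in the selected barcodes. In the counterparts they were −0.40 and 0.29, and 0.09 and −0.41.

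**Figure D3:**
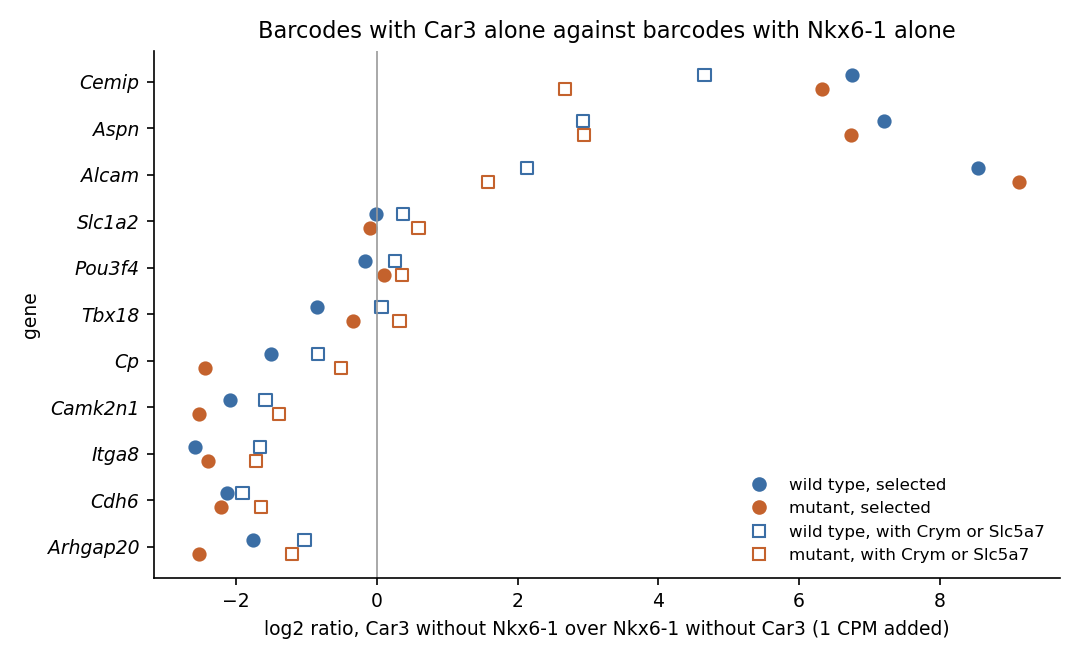
Log2 ratio of CPM (1 CPM added) between barcodes with Car3 alone and barcodes with Nkx6-1 alone, for 11 genes, in selected barcodes (filled circles) and Crym-positive counterparts (open squares) of the wild type (blue) and mutant (orange) libraries. Cemip, Aspn and Alcam lie right of 0 and Cp, Camk2n1, Itga8, Cdh6 and Arhgap20 left of 0 in all 4 comparisons; the filled ratios of the first 3 rest on 0 UMIs on the Nkx6-1 side.

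Between genotypes, the intervals for Ptch1 overlapped, 7 of 11 cartilage matrix genes and 8 of 19 immediate early and heat shock genes were lower by 2-fold or more in the mutant selection, and several of the largest ratios came from 1 to 5 barcodes. Ptch1 had 9 UMIs in 7 wild type barcodes, 21.3 CPM (9.73 to 40.4), and 12 UMIs in 10 mutant barcodes, 21.4 CPM (11.1 to 37.4). The counts are of 3' ends of transcripts, and whether they lie outside the deleted part was not tested, so this level does not check the deletion. The Hedgehog target Gli1 had 0 UMIs in the wild type (exact interval 0 to 8.72 CPM), and 3 UMIs in 2 mutant barcodes, 5.35 CPM (1.10 to 15.6). Hhip, a Hedgehog target that binds the ligand, had 3 and 6 UMIs, 7.09 CPM (1.46 to 20.7) and 10.7 CPM (3.93 to 23.3). Differences in these 3 genes were not detectable at this depth. Of the 12 Hedgehog transducers, 9 were measured, of which 1 was at least 2-fold higher and 0 lower. The higher one was Disp1, which releases the ligand, with 2 and 9 UMIs; it was named after its values were seen.

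Of 8881 genes with at least 10 UMIs over both selections, 569 (6.41%) were higher by 2-fold or more and 632 (7.12%) lower by as much in the mutant. With Poisson intervals that do not meet, 85 (0.957%) were higher and 169 (1.9%) lower. The split depended on 1 barcode and on scaling: 47.4% of calls were higher as summed, 62.9% with median-of-ratios scaling and 68.1% without the deepest mutant barcode. The median log2 ratio of all genes was −0.14, 0.02 and 0.08 in these 3 cases, and the ratios below are as summed.

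Among the 12 genes with the highest ratios were 6 neuronal ones, and 2 mutant barcodes held 88.4% or more of the UMIs of each. Elavl4, an RNA-binding protein of neurons, had 94 UMIs in 2 mutant barcodes and 12 in 4 wild type ones. Tubb3, the neuronal beta tubulin, had 112 UMIs in 3 barcodes. Of the 12, Gm10076 alone was in nearly every barcode, at 546 CPM in 50 wild type and 1950 CPM in 52 mutant barcodes; it stood at 498 and 2150 CPM in the counterparts and 488 and 1885 CPM in Otor-negative mesenchyme. Among the lowest, the macrophage genes Fcer1g and C1qb had 61 and 48 UMIs in 3 and 4 wild type barcodes, and 1 and 2 UMIs in the mutant.

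Several matrix genes were lower in the mutant selection and in the mutant counterparts, and others were not. Both comparisons rest on the same pair of libraries. Tgfbi, a secreted matrix protein, was higher, with 298 CPM against 409 CPM in the selections, and 262 CPM against 499 CPM among counterparts. Col14a1, a fibril-associated collagen, stood at 147 CPM (112 to 188) in 14 wild type barcodes and 26.8 CPM (14.98 to 44.2) in 4 mutant ones, and at 61.1 and 14.7 CPM in the counterparts. Ogn, the matrix proteoglycan osteoglycin, stood at 593 CPM (522 to 672) and 175 CPM (142 to 213), and at 456 and 116 CPM in the counterparts. Mia, a cartilage-made relative of Otor, stood at 102 CPM (73.6 to 137) and 24.98 CPM (13.7 to 41.9), and at 68.3 and 30.2 CPM in the counterparts. Col9a1 stood at 192 CPM (152 to 238) and 39.3 CPM (24.6 to 59.4), and at 961 and 504 CPM in the counterparts. Sox9, the master transcription factor of cartilage, stood at 229 CPM (186 to 280) and 107 CPM (81.7 to 138), and at 302 and 254 CPM in the counterparts.

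By list, 7 of 11 measured cartilage matrix genes were at least 2-fold lower in the mutant selection and 0 higher, with a median log2 ratio of −1.12; it was −0.83 without foreign markers and −0.74 in the counterparts. Of 19 immediate early and heat shock genes, 8 were lower and 0 higher, with a median of −0.86, or −1.44 without foreign markers and −0.37 in the counterparts. Fosb, an early response transcription factor, stood at 232 CPM (188 to 282) and 49.97 CPM (33.2 to 72.2), and Ier3 at 336 CPM (283 to 396) and 78.5 CPM (57.1 to 105). Selected barcodes had median mitochondrial shares of 2.20% (wild type) and 3.84% (mutant), and the part of RNA quality or of tissue dissociation in these values was not tested.

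In each of the other lists 5 genes or fewer passed 2-fold, against 6.41% higher and 7.12% lower among all genes. The lists are short, and in most of them the share lower was larger than among all genes. It was 4 of 15 for the WNT genes and 4 of 20 for the collagens. Of these lower genes, 0 WNT genes and 2 collagens had intervals that do not meet. Among the FGF genes the share higher was also larger. Of 32 otic mesenchyme transcription factors, 1 was at least 2-fold higher and 4 lower, with a median of −0.38. Of 24 fibrocyte and limbus products 0 and 3 passed, of 20 collagens 0 and 4, of 23 ion transport, connexin and carbonic anhydrase genes 0 and 2, and of 15 glutamate, iron and copper genes 0 and 1. Of 23 BMP and TGF beta genes 0 and 3 passed, of 11 FGF genes 2 and 2, of 15 WNT genes 0 and 4, of 8 retinoic acid genes 0 and 1, of 13 insulin-like growth factor genes 1 and 1, of 17 S phase genes 1 and 3, of 4 MIA family genes 0 and 1, and of 2 bone genes 0 and 1. The medians of these lists lay between −0.75 for the MIA family and −0.08 for the FGF genes, with −0.14 over all genes, so the sign of a median near that value depends on the scaling. The levels of the genes of the rule describe the choice and are no finding between genotypes. Otor had intervals that do not meet, 3218 CPM (3049 to 3393) and 2099 CPM (1980 to 2222). Without foreign markers Otor stood at 3626 and 3057 CPM. The other genes of the rule had intervals that overlap. Nkx6-1 stood at 42.6 CPM (25.2 to 67.3) and 67.8 CPM (48.0 to 93.1). Car3 stood at 456 CPM (394 to 525) and 460 CPM (406 to 520), Slc1a2 at 177 CPM (139 to 222) and 130 CPM (102 to 164), and Cp at 196 CPM (156 to 243) and 153 CPM (123 to 190).

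**Figure D4:**
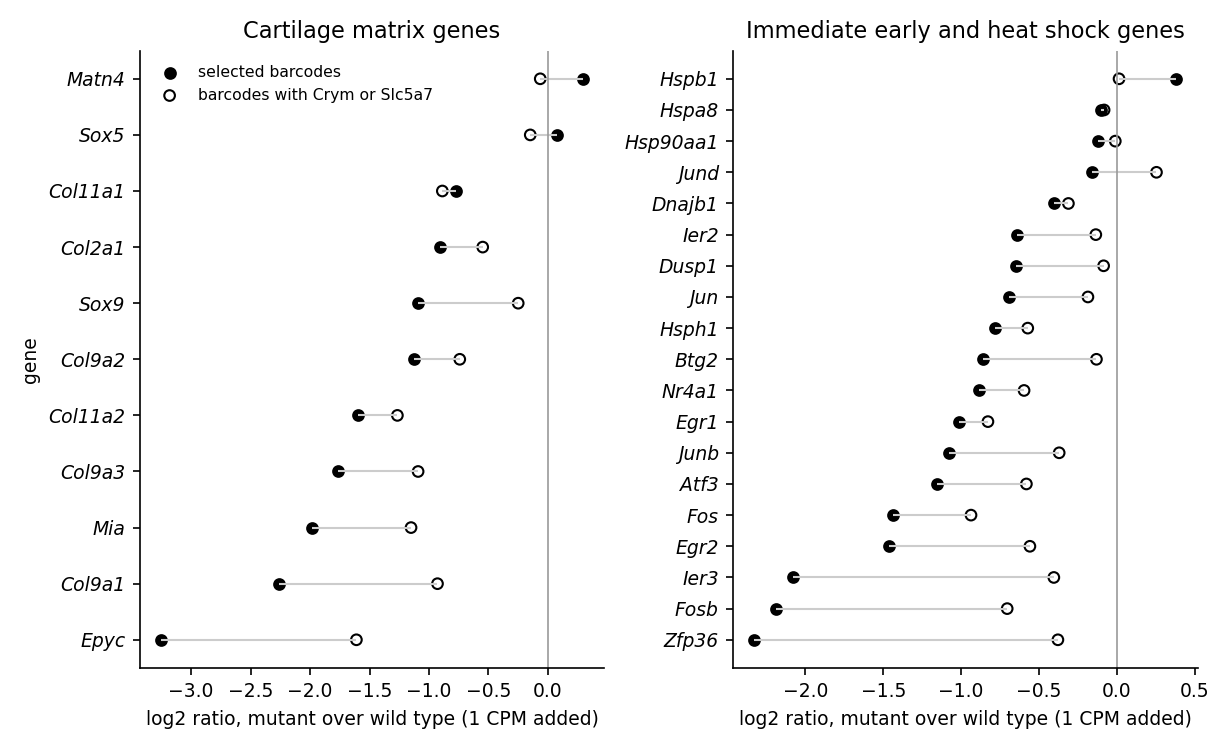
Log2 ratio of mutant over wild type CPM (1 CPM added) for the 11 measured cartilage matrix genes and the 19 measured immediate early and heat shock genes, in selected barcodes (filled) and Crym-positive counterparts (open), with 1 library per genotype. All filled points but Sox5, Matn4 and Hspb1 lie left of 0; Epyc, with 18 and 2 UMIs, is farthest left.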

How the data were processed

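Single-cell 3' libraries of 1 wild type and 1 mutant pool of cochleae were read as raw UMI counts per gene and barcode, as the authors deposited them, with no normalization. Per the submitters' processing notes they were made with Cell Ranger 6.0.0 on mm10; per the file headers the mutant matrix came from Cell Ranger 5.0.1, and the kit versions named in the labels differ. The calling of cells from barcodes was not described in the sources used here. Barcodes were filtered and selected by the stated rule, counts summed per library and scaled to CPM, and log2 ratios taken with 1 CPM added for genes with at least 10 UMIs. No doublets were removed; alternatives left out barcodes with foreign markers. No p-values were computed, with 1 library per genotype. Members and lists were chosen with earlier results of these data known, as were the comparisons with Crym-positive counterparts. Named genes were those of the rule, the largest ratios of each comparison above level and count limits, and 1 gene each way per list; exceptions are stated. Depths were 61130806 and 100135532 UMIs. Ratios and intervals were tested on simulated counts. Python 3.11.15, numpy 2.4.6 and scipy 1.17.1 were used.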

Additional observations from a re-analysis of the deposited data

Results flagged for a closer look

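For 8 genes the mutant over wild type log2 ratio in the selected barcodes had the opposite sign to that in the Crym-positive counterparts; with 1 library per genotype the difference was not tested. Neuronal genes were higher in the mutant selection and lower in the mutant counterparts: Elavl4 had a log2 ratio of 2.52, Tubb3 of 2.37, Elavl3 of 2.28, Ina of 1.88, Mapt of 1.63 and Map1b of 1.59. In the mutant selection 2 barcodes held 100% of the UMIs of Elavl4, Elavl3 and Ina, 99.1% of Tubb3, 94.0% of Mapt and 88.4% of Map1b. The macrophage genes Fcer1g, at −5.70, and C1qb, at −4.65, were lower in the mutant selection and higher in the mutant counterparts. In the wild type selection 2 barcodes held 98.4% of the Fcer1g and 95.8% of the C1qb UMIs.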

How the results depend on the processing

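No paired analysis was possible because each genotype has 1 library. Selected shares in the wild type and mutant libraries were 0.233% and 0.171% with 3 companions, 18.9% and 17.3% with Slc5a7 and Crym allowed, 1.37% and 0.928% without mixed barcodes, 1.43% and 1.00% after thinning, and 1.27% and 0.684% without barcodes with foreign markers. In place of 569 higher and 632 lower genes in the mutant, counts were 94 and 335 with Slc5a7 and Crym allowed, 877 and 410 without the deepest barcode, 51 and 102 at 50 UMIs or more, and 2454 and 2339 with no filter. They were 377 and 427 with 5 CPM added, 886 and 632 by the mean of per-barcode CPM, 713 and 391 with 3 companions, and 414 and 820 with 2 Otor UMIs or more. Against Otor-negative mesenchyme, 107 and 493 became 60 and 246 with 5 CPM added, 71 and 225 without mixed barcodes, and 57 and 245 without foreign markers. Against counterparts, 119 and 491 became 42 and 76 with 5 CPM added, and 189 and 938 without mixed barcodes. For Car3 against Nkx6-1, 52 and 109 became 81 and 47 by the mean of per-barcode CPM, and 74 and 54 without foreign markers.

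With Slc5a7 and Crym allowed, log2 ratios of mutant over wild type turned to −1.87 for Elavl4, −1.18 for Tubb3, −1.60 for Elavl3, −0.80 for Syt11, −2.29 for Ina, −2.01 for Mapt, −1.41 for Map1b, 0.023 for C1qb and 0.21 for Mcm6. With 3 companions they turned to −0.19 for Bpgm and 6.36 for Spp1. Without foreign markers they turned to −0.086 for Bpgm, −0.58 for Pcdh17 and −0.059 for Map1b, and with 2 Otor UMIs or more to −0.55 for Pcdh17. The cause was not tested beyond the barcodes named above. Depth limits low genes: 3 UMIs equal 7.09 CPM in the wild type selection, and 5.35 CPM in that of the mutant. The alternatives without foreign markers or the deepest barcode, and all those with counterparts, were chosen after seeing the data.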
